A study of Drosophila melanogaster with 3 samples.

Results

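The 56 genes described here were taken from a fixed list of Drosophila melanogaster gene symbols, labelled as homeobox genes outside the Hox clusters. The label was used as given, and whether each gene, zen and zen2 included, lies outside the clusters was not checked. All 56 were found among the 13945 protein-coding genes annotated on build dm6. The data are chromatin immunoprecipitations followed by sequencing (ChIP-seq) of the homeodomain protein HHEX (CG7056), made on whole embryos of mixed sex aged 0 to 24 h. The embryos came from 1 stable transgenic line in which CG7056 carries GFP at its C-terminus; an anti-GFP antibody was used, and the chromatin was sonicated to fragments of 200 to 800 bp. There was 1 group of 3 biological replicates, no other condition, and 1 control alignment shared by all replicates that was not analysed here, so regions enriched in any anti-GFP immunoprecipitation cannot be told apart from HHEX sites. The fusion protein was not compared with the untagged protein. Because whole embryos mix tissues and stages, binding in few cells and weak binding in many cells cannot be told apart either.

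Homeobox genes encode transcription factors that read A/T-rich DNA through a homeodomain, and they set body regions, organ primordia and neuron types in the embryo. They fall into classes by the homeodomain and by the domains beside it. The list held 22 genes of the ANTP class (the class of the Hox genes, with the NK genes among them), 14 of the PRD class (the Pax genes and their paired-like relatives), 5 LIM genes, 2 POU genes, 3 SINE genes (relatives of sine oculis), 7 TALE genes (homeodomains with an extended loop, often cofactors of Hox proteins), 1 CUT gene and 2 zinc-finger (ZF) genes. HHEX itself belongs to the ANTP class and is known in vertebrates as a regulator of endoderm, liver and blood development.

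Regions were counted at their summits, the position of highest signal in a called region. The IDR list, 5586 regions that the authors selected for reproducibility between replicates (irreproducible discovery rate), gave 28 peaks at 16 of the 56 genes, counting summits in the gene body or within 5000 bp of one of the gene's transcription start sites (TSSs). The other 40 genes had none. No share of all protein-coding genes by this combined rule is given, so the 16 are not read as many or few. The sequences at the strongest IDR peak of 6 of the 16 genes are shown so that the presence or absence of homeodomain words can be read directly. Each is 200 bp centred on the summit, from genome release 6 (dm6), + strand, 5′ to 3′. Capitals mark the homeodomain words searched on both strands. They are TAATTA, which reads the same on either strand, then CAATTA, which reads as TAATTG on the other strand, then ATTAA, which reads as TTAAT on the other strand and can overlap its own reverse. The peak of zfh2 lies at chr4:497787-497986 and that of zfh1 at chr3R:30781672-30781871. Those of hth and ct lie at chr3R:10597683-10597882 and chrX:7651719-7651918. The peaks of Lim1 and eyg lie at chrX:8774177-8774376 and chr3L:12468124-12468323.
zfh2: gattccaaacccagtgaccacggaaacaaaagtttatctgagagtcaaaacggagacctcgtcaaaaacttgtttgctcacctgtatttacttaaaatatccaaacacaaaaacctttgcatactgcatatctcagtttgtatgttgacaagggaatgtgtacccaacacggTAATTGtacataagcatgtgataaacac
zfh1: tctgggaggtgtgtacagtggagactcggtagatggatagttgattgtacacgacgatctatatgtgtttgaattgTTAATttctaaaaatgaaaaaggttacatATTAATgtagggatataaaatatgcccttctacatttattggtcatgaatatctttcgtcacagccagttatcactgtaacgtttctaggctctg
hth: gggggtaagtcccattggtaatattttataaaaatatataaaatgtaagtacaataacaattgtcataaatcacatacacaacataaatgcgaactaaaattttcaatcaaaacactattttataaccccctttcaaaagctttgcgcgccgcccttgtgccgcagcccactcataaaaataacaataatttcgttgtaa
ct: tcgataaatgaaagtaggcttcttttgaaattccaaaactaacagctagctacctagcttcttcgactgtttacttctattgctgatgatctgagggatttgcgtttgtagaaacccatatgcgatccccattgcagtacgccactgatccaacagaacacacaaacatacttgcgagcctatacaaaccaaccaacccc
Lim1: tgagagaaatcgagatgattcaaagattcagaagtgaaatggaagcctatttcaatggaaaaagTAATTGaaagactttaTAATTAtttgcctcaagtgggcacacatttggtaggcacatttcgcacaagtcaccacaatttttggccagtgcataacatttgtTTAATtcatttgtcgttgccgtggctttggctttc
eyg: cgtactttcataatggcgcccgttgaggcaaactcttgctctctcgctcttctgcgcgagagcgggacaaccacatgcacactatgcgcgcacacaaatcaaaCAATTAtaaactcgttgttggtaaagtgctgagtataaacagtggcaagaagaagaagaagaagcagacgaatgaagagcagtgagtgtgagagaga

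The 6 windows differed in these words. Lim1 had 1 match of each of the 3 words, zfh1 had 3 matches of ATTAA, zfh2 and eyg had 1 match each of CAATTA, and hth and ct had none of the 3. The hth window was the most A/T-rich of the 6, with 32.5% GC, and the eyg window the least, with 47% GC. The eyg window lies over the promoter and held 5 matches of GAGAG, the word bound by the GAGA factor. Over all 28 peaks, TAATTA was in 2 windows (7.14%, against 16.6% of all 5586 IDR peaks), CAATTA in 6 (21.4%, against 18.9%) and ATTAA in 13 (46.4%, against 60.3%). GAGAG was in 9 (32.1%, against 24.5%). The core promoter words TATCGATA and GGTCACAC were in 0 and 1 of the 28 windows, against 2.35% and 1.88% of all IDR peaks. Mean GC content was 39.3% at the 28 peaks and 37.1% at all IDR peaks. These are matches of letters in windows around summits and were not tested.

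Within 1000 bp of a TSS, 2 of the 56 genes had an IDR summit, eyg and so (3.57%), against 23.3% of the 13889 other protein-coding genes and a background of 23.2% over all genes. In the gene body 8 of 56 had one, otp, zfh1, hth, ct, Lim1, lbl, Ptx1 and tup (14.3%), against 14.4% of the other genes and a background of 14.4%. Within 5000 bp of a TSS 10 of 56 had one, zfh2, zfh1, hth, so, vis, eyg, bsh, caup, slou and unpg (17.9%), against 44.5% of the other genes and a background of 44.4%. The homeobox genes therefore stood below the other genes at and near TSSs, and beside them in gene bodies.

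The spread between replicates was taken from the 5586 regions of highest signal in each replicate list. Within 1000 bp of a TSS these regions reached 7 homeobox genes in replicate 1, 3 in replicate 2 and 5 in replicate 3, where the backgrounds over all genes were 23.7%, 21.7% and 23.4%. The mean share was 8.93% ± 3.57 of homeobox genes and 23% ± 1.08 of other genes (SD, n = 3 replicates). The difference of −14.1 ± 2.59 percentage points was negative in 3 of 3 replicates and larger than its spread (two-sided exact sign-flip permutation test, p = 0.25, the smallest that 3 replicates allow). Within 5000 bp the counts were 15, 8 and 11 homeobox genes in replicates 1 to 3, against backgrounds of 44.3%, 42.3% and 44.3%. There the mean share was 20.2% ± 6.27 of homeobox genes and 43.7% ± 1.12 of other genes, a difference of −23.5 ± 5.38 points that was negative in 3 of 3 replicates (same exact test, p = 0.25).

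In gene bodies each replicate reached 8 of the 56 homeobox genes, against backgrounds of 15%, 13.5% and 14.6% in replicates 1 to 3. The difference from other genes was −0.676, 0.815 and −0.287 points, with a mean of −0.0494 ± 0.773 points (SD, n = 3), smaller than its spread (two-sided exact sign-flip permutation test, p = 1). The 8 genes were not the same in each replicate: 5 were reached in all 3, and 11 in any. That is 45.5% of the 11, against 52.2% of all genes reached in any replicate. At TSSs within 1000 bp, 2 of 9 homeobox genes reached in any replicate were reached in all 3 (22.2%), against 49.9% of all genes. Within 5000 bp, 6 of 17 were (35.3%), against 60.2% of all genes. The share reached in all 3 replicates was thus lower for homeobox genes near TSSs, and in gene bodies it was close to that of all genes. These shares rest on few homeobox genes and were not tested.

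**Figure D1:**
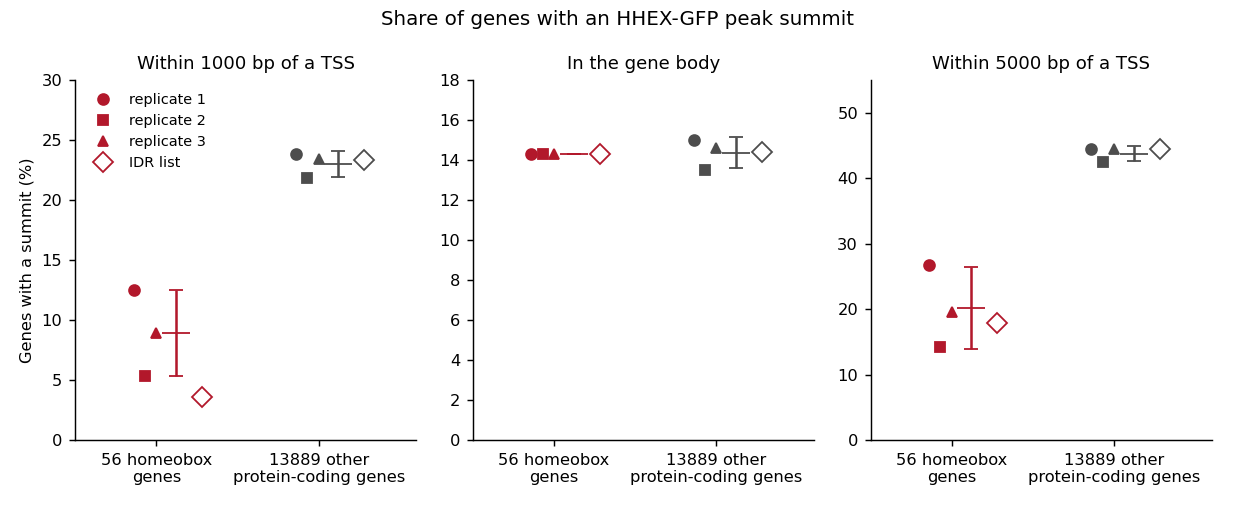
Share of genes (%) with a summit within 1000 bp of a TSS, in the gene body or within 5000 bp of a TSS, for 56 homeobox genes (red) and 13889 other protein-coding genes (grey); filled points are the 5586 highest-signal regions of each replicate, bars the mean ± SD over 3 replicates, and open diamonds the IDR list. The homeobox points lie below the others near TSSs (8.93% against 23%, and 20.2% against 43.7%) and beside them in gene bodies (14.3% in both).

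The pooled list, 30000 regions called on the reads of all replicates together, reaches far below the IDR list in signal. In it 27 of 56 homeobox genes had a summit within 1000 bp of a TSS (48.2%), against a background of 53.3%, and 43 had one within 5000 bp (76.8%), against 79.9%. In gene bodies 35 had one (62.5%), against 36.6% of all genes. These shares count strong and weak regions alike. Signal, which the authors' peak caller assigned to each region, is given as deposited. Among genes with a pooled summit within 1000 bp of a TSS, the median of the strongest region was 69.9 at homeobox genes and 135 at all genes. In the replicate lists of 30000 regions those medians were 41.3 against 53.5 in replicate 1, 28.8 against 41.9 in replicate 2 and 36.9 against 49.3 in replicate 3. Signals are not on 1 scale across lists and were compared within a list. A −log10 q of 2 or more was reached by 9759 regions of replicate 1, 3212 of replicate 2 and 6498 of replicate 3. Read depth is unknown.

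Summits around the 87 annotated TSSs of homeobox genes were sparser than around the 19520 TSSs of other protein-coding genes. In the 500 bp just before the TSS the pooled list held 21.8 summits per 100 homeobox TSSs and 37.1 per 100 other TSSs. In the 500 bp after it there were 8.05 per 100 homeobox TSSs and 19.8 per 100 other TSSs. The TSSs also differed in base composition, a measure that the gene list did not use. GC content in the 1000 bp around the TSS averaged 47.5% ± 5.9 over the 56 homeobox genes and 42.7% ± 4.7 over all genes (SD between genes), and 42.5% over genes with an IDR summit within 1000 bp. It ranged between 31.4% at exd and 58% at unpg. By class it averaged 49.6% over the ANTP genes, 48.5% over the LIM genes and 44% over the TALE genes, and it was 37.1% at ct.

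All genes were split into 4 groups of like size by this GC content. The group of highest GC, 45.7% to 59.8%, held 38 of the 56 homeobox genes. Of those 38, 0 had an IDR summit within 1000 bp of a TSS, against 18.2% of all genes in that group, and 17 had a pooled summit, against 47.3% of all genes there. In the 3 lower groups 0 of 7, 0 of 7 and 2 of 4 homeobox genes had an IDR summit, against 21%, 27.7% and 25.6% of all genes. In those 3 groups 4 of 7, 3 of 7 and 3 of 4 homeobox genes had a pooled summit, against 50%, 59.5% and 56.1% of all genes. The 3 lower groups hold few homeobox genes, so their counts are not read as many or few. The part of base composition in the result was not tested. The GC groups were chosen after the values were seen.

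**Figure D2:**
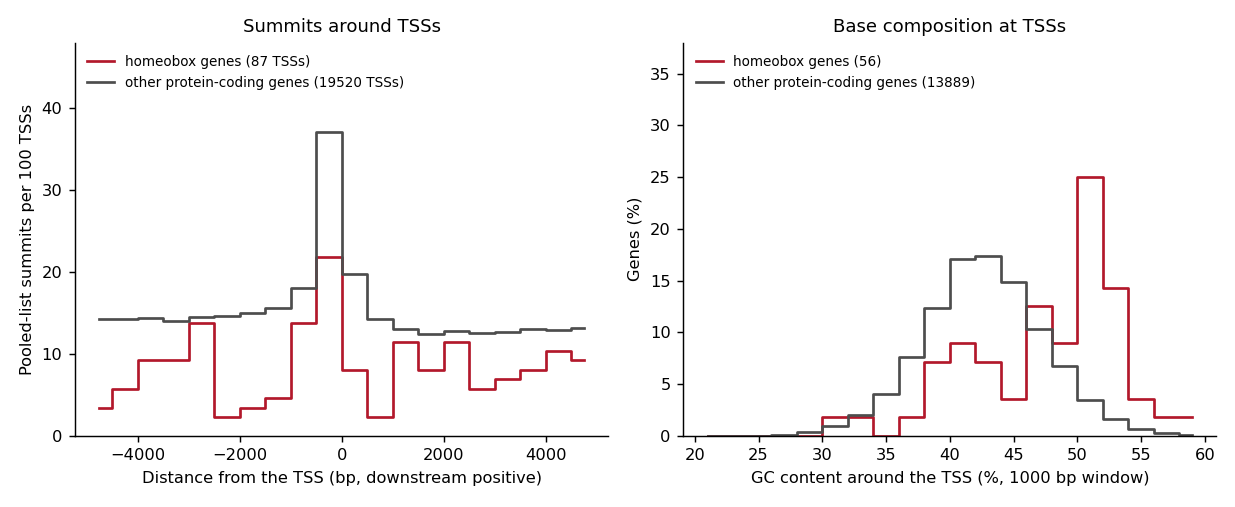
Left, pooled-list summits per 100 TSSs in 500 bp bins by distance from the TSS (bp) for homeobox genes (red, 87 TSSs) and other protein-coding genes (grey, 19520 TSSs); right, share of genes (%) by GC content (%) of the 1000 bp around the TSS. The homeobox line stays lower just before the TSS (21.8 against 37.1), and homeobox genes lie at higher GC content (mean 47.5%, against 42.7% over all genes).

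Promoters were also searched for the words above. In the window of 250 bp before to 50 bp after the TSS, on both strands, TAATTA was in 4 of 56 homeobox promoters (7.14%: lbe, Lim1, vis and zfh2), in 24.3% of all protein-coding promoters and in 29.8% of those with an IDR summit within 1000 bp. ATTAA was in 28 (50%), against 73.8% of all and 81.8% of those with a summit. CAATTA was in 13 (23.2%), against 30.3% of all. GAGAG was in 40 (71.4%), against 36.3% of all and 45.9% of those with a summit. TATCGATA, the DNA replication-related element, was in 3 (5.36%: vnd, exd and vis), against 10.2% of all, and GGTCACAC, motif 1 of housekeeping promoters, was in 0, against 8.71% of all. The share with GAGAG was thus higher among homeobox promoters than among all promoters, and the shares with the A/T-rich and housekeeping words were lower; these differences were not tested.

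The homeobox genes also stood in other surroundings than most genes. Their median length was 12.1 kb, against 2.17 kb for all genes, between 1 kb (zen2) and 132 kb (hth). The nearest TSS of another gene lay a median of 7140 bp away, against 1080 bp. Of the 56, 8 had another gene's TSS within 1000 bp (14.3%), against 48.2% of all genes. The median number of IDR peaks in the gene and 25 kb on either side was 2, against 3 for all genes, or 2.97 per 100 kb against 5.36. That number reached 11 at ct, 10 at hth, 8 at zfh1 and 6 at ro, and it was 0 at B-H1, E5, ind, scro, ey, Vsx1, al, ap, nub and exd.

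Set beside genes of like surroundings, the homeobox genes had lower shares in most groups, and not in all. Among genes with no other gene's TSS within 1000 bp, 2 of 48 homeobox genes had an IDR summit within 1000 bp of a TSS (4.17%), against 14.5% of all such genes. Where another TSS lay within 1000 bp, 0 of 8 did, against 32.5%. Where the nearest other TSS lay over 1000 and up to 5000 bp away the shares were close, 2 of 14 (14.3%) against 14.6%, and within 5000 bp of a TSS 35.7% against 38.3%. Where no other TSS lay within 5000 bp, 0 of 34 had an IDR summit within 1000 bp, against 14.3%. In gene bodies the share was higher among homeobox genes where another TSS lay within 1000 bp (3 of 8, 37.5%, against 16.5%). Among genes with 1 TSS the body shares were close, 3 of 38 (7.89%) against 6.59%. Among genes of over 5 to 15 kb, 0 of 15 homeobox genes had an IDR summit in the body, against 31%. From over 15 to 30 kb 5 of 20 did (25%), against 53.3%, and over 30 kb 3 of 6 did (50%), against 59.4%. The equal shares in gene bodies over all lengths thus set long homeobox genes against mostly short other genes. Per 100 kb of gene body there were 1.78 IDR summits in homeobox genes and 3.97 in other genes. In the replicates the densities averaged 1.71 ± 0.0606 in homeobox genes and 4.01 ± 0.157 in other genes (SD, n = 3). The homeobox values rest on 16, 16 and 17 summits in the same genes. The difference was larger than the spread between replicate lists, which does not cover the choice of genes. These strata were chosen after the values were seen.

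**Figure D3:**
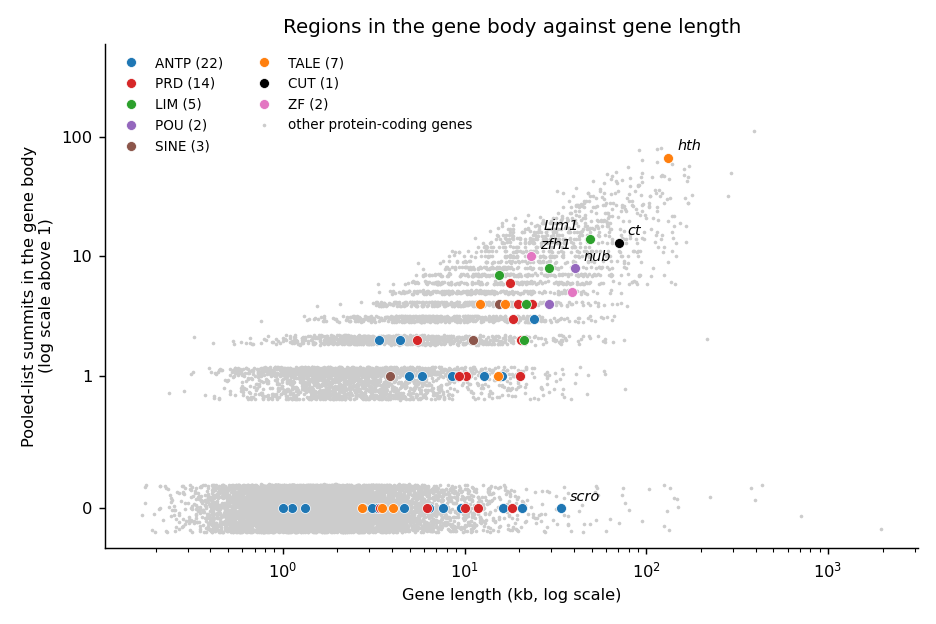
Number of pooled-list summits in the gene body against gene length (kb), both on log scales (the vertical one above 1, with 0 below), for the 56 homeobox genes coloured by class and for other protein-coding genes (grey, spread slightly up and down). Of the homeobox genes hth has the most summits (67 in 132 kb), while scro, at 33.9 kb, has 0.

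In the 28 peaks at homeobox genes, 17 summits lay in introns (50.8% of all IDR peaks did), 8 between genes, 1 in a coding exon and 2 in other exons. For 16 of the 28 the nearest TSS of any gene was the homeobox gene's own. A region over the summit was present in all 3 replicate lists for 24 of the 28 and in 2 lists for the other 4. Pooled signals ran between 158 and 1487 with a median of 206, while the whole IDR list had a median of 255 and a lowest value of 156. Most of these peaks therefore ranked in the lower part of the IDR list, and 14 of the 28 were among the 5586 highest regions of all 3 replicates.

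**Figure D4:**
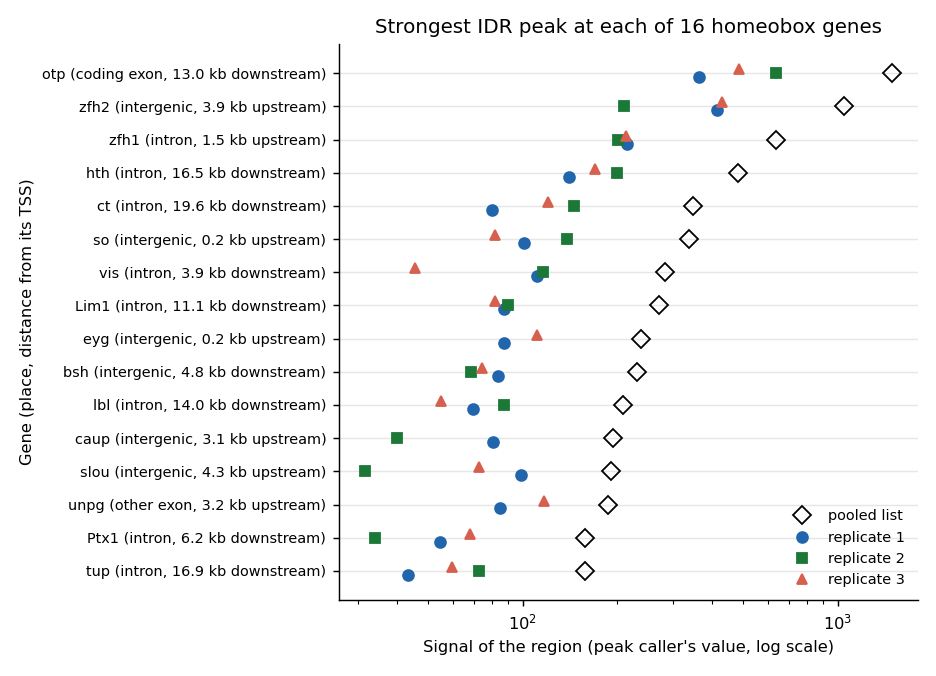
Signal (the peak caller's value, log scale) of the strongest IDR peak at each of the 16 homeobox genes that had one, in the pooled list (open diamonds) and where present in the list of each replicate (filled points), ordered by pooled signal. The peak at otp leads with 1487, those of zfh2 and zfh1 follow with 1046 and 638, and Ptx1 and tup are lowest at 158.

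Of the PRD class, otp (orthopedia, a regulator of neural and hindgut development in the fly) had the strongest peak of the set. The pooled list gave it a signal of 1487, at rank 95, and replicates 1, 2 and 3 gave 364, 636 and 485. The summit lay in a coding exon, at position 20884574 of chromosome arm 2R, 13010 bp downstream of the nearest TSS of otp and 4644 bp from the TSS of Cib2, the nearest of any gene. All 3 replicates placed it among their 216 highest regions. A second peak in an intron of otp was near the lower end of the IDR list, at 158 in the pooled list and 42.5, 67.2 and 53.2 in replicates 1 to 3. The TSSs of otp had no pooled summit within 1000 bp.

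The Pax gene eyg (eyegone, which acts in eye growth and in the salivary ducts) was the PRD gene with a summit at its promoter. That summit lay 203 bp upstream of the TSS, with a pooled signal of 238 (rank 3087) and 87.6 and 111 in replicates 1 and 3. Replicate 2 had no region over it but had a separate one 370 bp from the TSS, at 50.6 (rank 5164), so all 3 replicates had a region at the promoter, with close summits in replicates 1 and 3 (191 and 190 bp from the TSS). Its neighbour toe (twin of eyegone), 29868 bp away, had a pooled region of 58.3 at its promoter and no IDR summit; 5 pooled summits, 1 of them in the IDR list, lay between the pair. Ptx1, a Pitx relative, had an intronic peak of 158 (54.8, 34.1 and 68.1 in the replicates).

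The remaining PRD genes had no IDR summit. The Pax6 genes differed in weak regions: ey (eyeless) had 4 pooled summits in its body, and toy (twin of eyeless) had 0 in its body and 0 within 5000 bp of a TSS. The glial gene repo, the neuronal gene unc-4 and the anterior brain gene hbn had 0 in the body, and Vsx1, which acts in the visual system, had 3, the strongest at 143. The head gap gene oc (ocelliless, also called orthodenticle) had 2 pooled summits in its body and none within 5000 bp of a TSS, Rx had 1 and al (aristaless) had 1. gsb-n had none by any of the rules in the pooled list.

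The ZF class holds zfh1, a repressor that acts in mesoderm, heart and motor neurons, and zfh2, which acts in the nervous system and the wing. The zfh2 peak lay between genes, 3923 bp upstream of the TSS of zfh2, which was the nearest of any gene, on chromosome 4. Pooled reads gave it a signal of 1046 (rank 221), and replicates 1, 2 and 3 gave 413, 209 and 429, with replicate 2 the lowest. At the zfh2 promoter itself the pooled region was weaker, at 136 (rank 6823), with 95.6, 25.2 and 27.7 in replicates 1 to 3, high in replicate 1 alone. The zfh1 peak in an intron, 1486 bp upstream of an inner TSS of zfh1, had a pooled signal of 638 (rank 612) and 215, 201 and 213 in the replicates; the replicate values lay close together. The summit also lies inside asRNA:CR45189, an antisense transcript. Further zfh1 peaks stood at 203, in an intron (67.3, 54.1 and 64 in the replicates), and at 169, between genes and 4480 bp upstream (72.7 in replicate 1, 70.8 in replicate 3 and no region in replicate 2).

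Of the TALE class, hth (homothorax) makes a cofactor of Hox proteins that brings Extradenticle into the nucleus, and it had the most regions. Its 132 kb body held 67 pooled summits, of which 6 were IDR peaks, and the replicate lists put 56, 57 and 65 summits there. The strongest, in an intron 16493 bp from the nearest TSS of hth, had a pooled signal of 483 (rank 1009) and 140, 200 and 170 in replicates 1 to 3. The second in rank lay upstream of the gene, 3759 bp from its TSS and in an exon of asRNA:CR44018, at 307 (103, 86 and 117). The third, an intronic one, was at 303 (105, 105 and 71.8). The other 4 hth peaks ran between 169 and 190 and were present in all 3 replicates. Of the 67 pooled regions in hth, 38.8% had a region in all 3 replicates, against 26.2% of the 195 in all homeobox gene bodies and 33.8% in all gene bodies. The TSSs of hth had 0 pooled summits within 1000 bp, and 2, 1 and 1 in the lists of replicates 1 to 3. The 6 IDR peaks in its body lay in introns, and its weaker regions were not sorted into introns and exons.

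**Figure D5:**
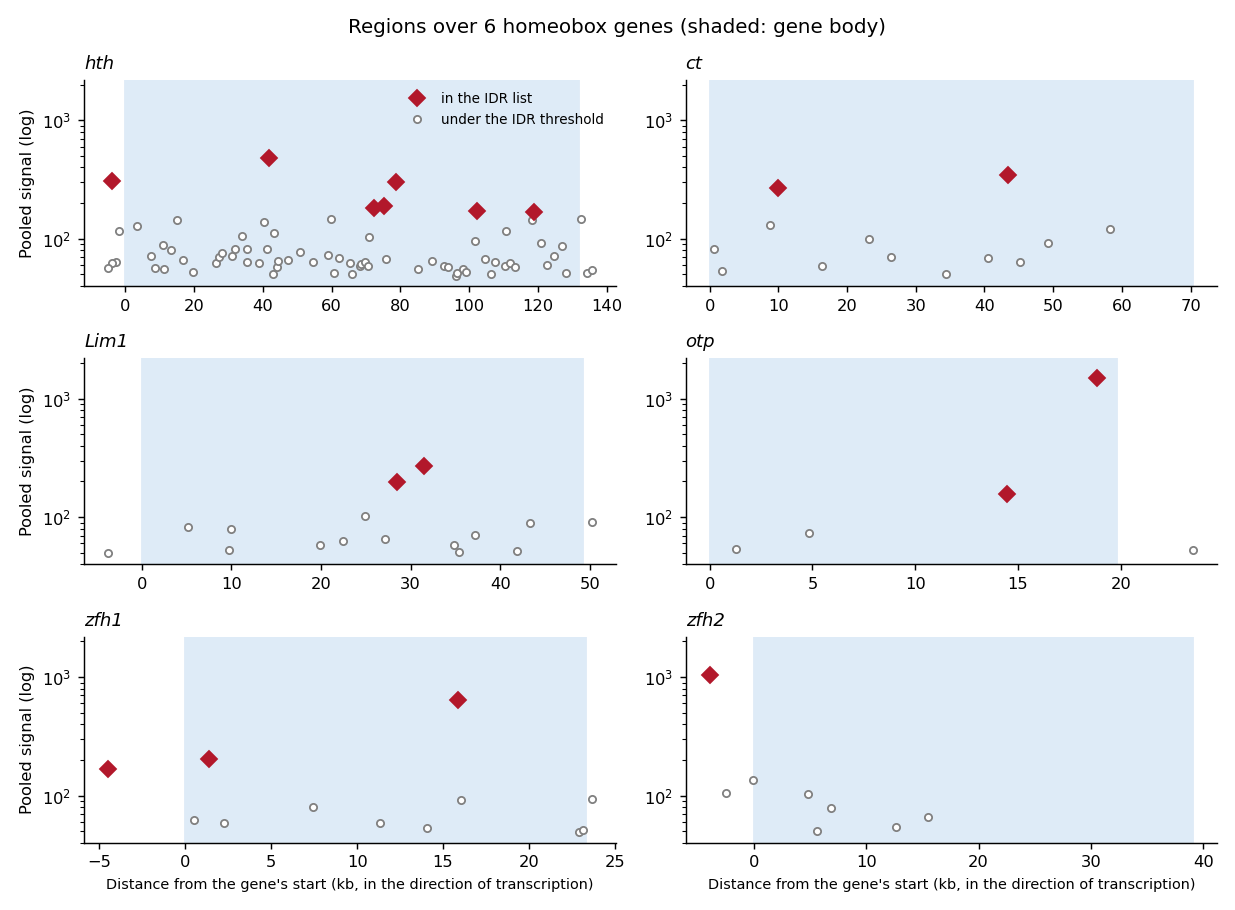
Pooled-list regions over hth, ct, Lim1, otp, zfh1 and zfh2 by distance from the gene's start (kb, in the direction of transcription) and pooled signal (log scale), with the gene body shaded; filled diamonds are IDR peaks and open circles lie under the IDR threshold. In hth 6 IDR peaks are spread over 132 kb, whereas the zfh2 peak of 1046 lies outside the gene.

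The partner of hth, exd (extradenticle), had 0 pooled summits in its 4.04 kb body and 0 within 5000 bp of a TSS. Replicates 1 and 3 had a region within 1000 bp of its TSS, at 68.7 and 58.4, both nearer to the TSSs of eIF5 and CG46312. The Iroquois genes ara (araucan), caup (caupolican) and mirr (mirror), which pattern the eye, the wing and the notum, lie in 1 complex. The IDR peak near caup was at 193, between ara and caup and 3141 bp upstream of caup (80.8 in replicate 1, 40 in replicate 2 and no region in replicate 3). Between ara and mirr, across 97620 bp that include caup, there were 29 pooled summits, of which 5 were IDR peaks; of these 5, the peak near caup was the 1 within 5000 bp of a TSS of the 3 genes. The TGIF genes achi (achintya) and vis (vismay), which act in spermatogenesis, are 918 bp apart. vis had a peak of 284 (111, 116 and 45.6 in the replicates) that lay 662 bp from the TSS of fdl, in an intron of fdl, and achi had none.

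In the SINE class so (sine oculis, a partner of Eya in eye determination) had the stronger of the promoter peaks. Its summit lay 243 bp upstream of the TSS, with a pooled signal of 337 (rank 1778) and 101, 138 and 81.9 in replicates 1 to 3. All 3 replicates placed this region in their 5586 highest and its summit between 243 and 254 bp from the TSS. Six4, which acts in mesoderm and gonad, had a promoter region of 118 in the pooled list, at 66.2 in replicate 1 and 40.2 in replicate 3, and none in replicate 2. Optix, which acts in eye development, had 5 pooled summits within 5000 bp of its TSSs and 0 in the IDR list.

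The CUT gene ct (cut, which gives external sensory organs their identity) had intronic peaks of 348 and 266, at 19597 and 9251 bp from its nearest TSS. The first had 80.2, 146 and 120 in replicates 1, 2 and 3, and the second 62.9, 98.5 and 108, with replicate 1 the lowest in both. Lim1, the LIM gene with the strongest peaks, which acts in head, leg and neurons, had intronic peaks of 270 (87, 90.1 and 81.8) and 199 (69.9, 67.3 and 64), and their replicate values lay close together. tup (tailup, the fly Islet gene of motor neurons and heart) had an intronic peak of 158 (43.4, 72.6 and 59.5). ap (apterous, the dorsal selector of the wing), Awh and the motor neuron gene Lim3 had 2, 7 and 8 pooled summits in the body and no IDR summit. The POU genes nub (nubbin) and pdm2, which act in the timing of neuroblasts, had 8 and 4 pooled summits in the body and 0 IDR summits; 5 pooled summits and no IDR peak lay in the 29029 bp between them.

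The ANTP genes had the lowest density of pooled summits in gene bodies of the 8 classes. lbl (ladybird late, which acts in heart and muscle founder cells) had the 1 IDR summit in a body, intronic, at 208 (69.7, 87.4 and 55.2 in replicates 1 to 3), and its sister lbe, 7443 bp away, had none. bsh (brain-specific homeobox) had peaks at 231 and 179, both nearer to fbp, 152 and 389 bp from its TSS. They lay over the same region in replicate 1 (83.8) and in replicate 3 (74.3), and over separate regions in replicate 2 (68.4 and 51). slou (slouch, a muscle identity gene) had a peak of 191 between genes, 4338 bp upstream (99, 31.7 and 72.7). unpg (unplugged) had a peak of 187, 55 bp from the TSSs of CG8026 and CG45085 (84.9 in replicate 1, 117 in replicate 3 and no region in replicate 2). Thus 2 of the 3 ANTP genes counted within 5000 bp owed it to peaks at the promoter of another gene.

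Dll (Distal-less, needed for limbs) came closest to the IDR threshold at a promoter among the ANTP genes. Its pooled region, 130 bp from the TSS, had a signal of 145 (rank 6155), against a lowest IDR signal of 156. In replicate 1 it was at 112 (rank 2082), and in replicates 2 and 3 the strongest region within 1000 bp was at 49.7 and 36.9. H2.0, a gene of the visceral mesoderm, followed with a pooled promoter region of 137 (74.9, 31.2 and 56.3). ro (rough, which acts in photoreceptors) had 121, nearest to the TSS of T48. The columnar neuroblast gene ind (intermediate neuroblasts defective) had no summit by any rule in the pooled list or in any replicate list of 30000, the 1 gene of the 56 for which this held. Its fellow vnd (ventral nervous system defective) had a pooled promoter region of 110. scro (scarecrow) had 0 pooled summits in its 33.9 kb body, while replicate 2 alone placed 5 there. The Bar genes B-H1 and B-H2, the head genes ems and E5 and zen, which specifies the amnioserosa, with zen2 had 0 or 1 pooled summit in the body. Of the other ANTP genes, the motor neuron gene exex had 2 there, C15, a gene of the leg tip, and Dr (Drop), a gene of the dorsal neuroblasts, had 1 each, and HGTX and the muscle gene lms had 0. In all, 9 of the 56 genes had no pooled summit in the body or within 5000 bp of a TSS: B-H2, ind, lms, scro, toy, gsb-n, hbn, exd and achi. No share of all genes by this combined rule is given.

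By class, ANTP genes had an IDR summit within 1000 bp, in the body and within 5000 bp in 0, 1 and 3 of 22 cases, and PRD genes in 1, 2 and 1 of 14. LIM genes had 0, 2 and 0 of 5, POU genes 0, 0 and 0 of 2, and SINE genes 1, 0 and 1 of 3. TALE genes had 0, 1 and 3 of 7, the CUT gene 0, 1 and 0 of 1, and the ZF genes 0, 1 and 2 of 2. Over all protein-coding genes the shares by these rules were 23.2%, 14.4% and 44.4%. Between the classes with over 10 genes, the share with a summit in the body averaged 3.03% ± 2.62 for ANTP and 14.3% ± 7.14 for PRD over the replicates (SD, n = 3). The difference was −2.6, −9.74 and −21.4 points in replicates 1, 2 and 3, a mean of −11.3 ± 9.51 points (two-sided exact sign-flip permutation test, p = 0.25). Its sign held in 3 of 3 replicates, but its size was close to its spread, and ANTP genes were the shorter, with a median of 6.07 kb against 14.9 kb for PRD.

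Pooled summits per 100 kb of gene body, which allow for length, ran from 6.48 in ANTP and 12.3 in PRD genes through 17.2 in POU, 18.5 in CUT, 22.8 in SINE, 24.1 in ZF and 25.5 in LIM genes to 40.8 in TALE genes. Of the 76 summits in TALE genes 67 were in hth. All 56 genes together had 20.5 per 100 kb, against 22.7 for other genes, and without hth they had 15.6. For IDR summits the value was 1.78 with hth and 1.34 without it. The weak regions in homeobox gene bodies were thus nearly as dense as elsewhere when hth was counted, and their share that reached the IDR list was lower, 8.72% of 195 against 17.4% of 20446.

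Regions between and at the members of 14 pairs of related or neighbouring genes were compared. B-H1 and B-H2 had 6 pooled summits and 1 IDR peak in the 73302 bp between them, ems and E5 had 6 and 0 in 26936 bp, lbe and lbl 2 and 0 in 7443 bp, and zen and zen2 2 and 0 in 8727 bp. An IDR summit was found at 1 gene and not at the other, by any rule, for ara and caup, lbe and lbl, eyg and toe, achi and vis, exd and hth, and so and Optix. In these 6 pairs the gene with the summit was the longer in lbl, hth and so, and the shorter in caup, eyg and vis. No test between the pairs was made.

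Other lists of transcription factor genes served as a measure of whether the low TSS count was general to such genes. In the replicates the share with a summit within 1000 bp of a TSS was 8.93% ± 3.57 of the 56 homeobox genes, 4.17% ± 7.22 of 8 Hox cluster genes, 18.2% ± 3.03 of 33 further homeobox genes not in the list of 56, 27.1% ± 3.61 of 16 forkhead genes and 52.4% ± 8.25 of 21 nuclear receptor genes (SD, n = 3). Protein-coding genes outside the 56 averaged 23%. In the IDR list the counts were 2 of the 56 and 0 of 8 Hox cluster genes, against a background of 23.2% over all genes. They were 7 of 33 further homeobox genes (21.2%), 4 of 16 forkhead genes (25%) and 10 of 21 nuclear receptor genes (47.6%). The further homeobox genes and the forkhead genes thus stood near the background by this rule. The further homeobox genes with a peak were led by tin at 526, NK7.1 at 460, PHDP at 455 and HHEX at 228, so the strongest promoter peaks at homeobox genes lay outside the 56. Among the forkhead genes fkh stood at 1570 and among the nuclear receptor genes Hr96 at 727. Taking all 97 matched homeobox genes together, 9 had an IDR summit within 1000 bp (9.28%), 16 in the body (16.5%) and 25 within 5000 bp (25.8%). Over all protein-coding genes these shares were 23.2%, 14.4% and 44.4%.

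In gene bodies the 56 genes had 14.3% ± 0 in the replicates, Hox cluster genes 33.3% ± 7.22, further homeobox genes 12.1% ± 3.03, forkhead genes 25% ± 0 and nuclear receptor genes 54% ± 2.75. Within 5000 bp of a TSS the 56 genes had 20.2% ± 6.27, Hox cluster genes 50% ± 0, further homeobox genes 29.3% ± 1.75, forkhead genes 54.2% ± 3.61 and nuclear receptor genes 66.7% ± 4.76. Protein-coding genes outside the 56 averaged 14.3% in gene bodies and 43.7% within 5000 bp of a TSS. Median gene lengths were 12.1 kb for the 56, 30.6 kb for Hox cluster genes, 4.78 kb for further homeobox genes, 4.06 kb for forkhead genes and 22.4 kb for nuclear receptor genes. The nuclear receptor genes, with a median of 22.4 kb against 12.1 kb, had higher values than the 56 homeobox genes by every rule. The part of gene length in this was not tested. The lists differ in length, size and choice, and differences between them were not tested.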

How the data were processed

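ChIP-seq regions of HHEX-GFP in 3 biological replicates were analysed as the authors deposited them: 3 replicate lists and a pooled list of 30000 regions each, and an IDR list of 5586, on dm6. Per the labels' file descriptions, all were called against a shared control alignment. The signal of a region and its −log10 q value are the authors' deposited values, not rescaled between lists, and the summit offset was used as deposited. No aligner, caller or IDR cut-off is named in the sources used. Lists on dm3 were not used. Read depth is unknown, so no counting interval is given.

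Genes and TSSs came from Ensembl release 115 (BDGP 6.54) without transposable elements, leaving 23581 distinct TSSs, and sequence from genome release 6. A gene was called by a rule when a summit lay within 1000 bp of a TSS, in its body, or within 5000 bp of a TSS. Replicates were compared over their 5586 highest-signal regions, with an exact two-sided sign-flip permutation test. Counting was tested on simulated summits. Python 3.11.15, pandas 2.3.3 and numpy 2.4.6 were used. The members, lists, words and alternatives were chosen with earlier results of these data known. The naming rule asked for values in every list for up to 12 genes with the strongest IDR summit in the body or within 1000 bp of a TSS, which 10 genes had; other genes were named after their values were seen.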

Additional observations from a re-analysis of the deposited data

How the results depend on the processing

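Among the IDR counts, 2 genes within 1000 bp, 8 in the body and 10 within 5000 bp of a TSS, the 2793 peaks of higher signal gave 1, 5 and 5 (all genes: 14.1%, 8.79% and 29.4%). Requiring the nearest TSS to be the gene's own gave 2, 4 and 7 (all genes: 17.1%, 11.8% and 20.8%). Within 5000 bp that took the homeobox count from 10 to 7 and the share of all genes from 44.4% to 20.8%, so the gap narrowed. A window of 2500 bp in place of 5000 bp gave 3 (all genes: 31.8%), and bodies widened by 5000 bp gave 24 (all genes: 50.5%). Leaving out 1 replicate each, which left 3656 to 4017 peaks, gave 1 to 2, 5 to 6 and 5 to 8 genes. The shares of all genes were then 16% to 17.9%, 10.3% to 11.5% and 32.9% to 35.9%. Without replicate 1 or 3 the count within 1000 bp was 1, and without replicate 2 the body count was 5. The count within 5000 bp was 5 without replicate 1 and 6 without replicate 3. The other alternatives moved these counts by under 1.5 times; with any overlap of a region counted, the body count was 9 (all genes: 22%). The body difference between homeobox and other genes, −0.0494 points, had no stable sign: it was −4.97 with any overlap counted, −1.07 with the 2793 highest regions of each replicate, 2.17 with regions of −log10 q of at least 2, and −0.481 to 0.264 with 1 replicate left out (0.264 without replicate 1, 0.0694 without replicate 3). The differences near TSSs stayed negative in every alternative run, as did that between ANTP and PRD genes, which was −11.3 points, −5.63 with those 2793 highest regions, and −15.6 to −6.17 with 1 replicate left out (−6.17 without replicate 3). No paired analysis was possible because there is 1 group. The lists hold called regions, with no reads, so weak binding under the 30000 regions of a list is not seen.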
